A study of Mus musculus with 12 samples.

Results

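HOE_APP neurospheres, which carry the APPswe and PS1dE9 mutations and were kept with the B2 receptor antagonist HOE-140, were compared with untreated APP_WT neurospheres of the same genotype on 4 of the 12 arrays of the study. The members were chosen by their titles, and each of the 4 arrays held both conditions, HOE_APP in 1 dye and APP_WT in the other. The cells were neural progenitors from the telencephalon of C57BL/6 embryos at day 13, grown as neurospheres with EGF and FGF2 and then allowed to attach and differentiate without these factors for 7 days. HOE_APP cultures received 1 µM HOE-140 on days 0, 3 and 6 of differentiation, APP_WT cultures received nothing, and RNA was taken on day 7. The other arrays compared APP_WT with WT neurospheres and BK_APP neurospheres, which received 1 µM bradykinin (BK) on the same days, with APP_WT, with 4 arrays each. All HOE_APP, BK_APP and APP_WT cultures carried both transgenes, so that the treatment comparison holds no WT cells. The study describes the 4 replicates of each condition as biological.

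Bradykinin is a short peptide cut from kininogens by kallikreins. It acts mainly through the constitutive B2 receptor, a Gq-coupled receptor encoded by Bdkrb2, while the B1 receptor (Bdkrb1) is induced in inflamed tissue. HOE-140, also known as icatibant, is a peptide antagonist of the B2 receptor. In the brain, kinins are known for effects on microglia, astrocytes, blood vessels and neural progenitors. The APPswe transgene encodes a chimeric mouse and human amyloid precursor protein with the Swedish mutation, and both transgenes are driven by the mouse prion protein promoter, which is active in many neural cells.

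Values are log2 ratios of HOE_APP over APP_WT, so that a value of −1 would be a level 2-fold lower in HOE_APP. In the 4 HOE_APP channels 49.5% to 60.1% of the spots were well above background, and 29361 probes, which stood for 14330 named genes, passed the filter on dim probes. Defining markers of neurons, astrocytes, neural progenitors and the oligodendrocyte lineage were well above background in both channels of all 4 arrays, as were 5 of 6 microglial markers. P2ry12 of microglia and Cdh5 and Cldn5 of endothelial cells were not well above background on any of them. The endothelial marker Pecam1, Pdgfrb, Col1a1 and Dcn of pericytes and fibroblasts, and Cd3e and Cd4 of T cells were so in both channels of all 4 arrays. Cd8a of T cells and S100a8 and Ccr2 of peripheral myeloid cells were not. In these mixed cultures, fewer cells of a type and less RNA per cell cannot be told apart.

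The sign of the whole comparison is likely only. The labels of both channels name HOE treatment on arrays R1 and R2 and no treatment on R3 and R4. Read together with titles, first-channel labels, the dye swap and the way BK_APP was hybridised, HOE_APP was most likely labelled with Cy5 on R1 and R2 and with Cy3 on R3 and R4. This direction was used. Among these 4 arrays the deposited log2 ratios have the sign turned against red over green on R3 and R4, which is the same layout. Every difference between HOE_APP and APP_WT below would turn its sign if the direction were the opposite, and every difference between HOE_APP and BK_APP would take another value.

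No gene passed the test of HOE_APP against APP_WT. With limma and Benjamini-Hochberg adjustment, 0 of 29360 probes had an adjusted p below 0.05, and the smallest adjusted p was 0.898. At an unadjusted p below 0.05 there were 1475 probes, or 5.02% of those tested, of which 677 (2.31%) were higher and 798 (2.72%) lower in HOE_APP. Over the 14330 genes the shares were 2.48% higher and 2.42% lower, beside which the counts in gene lists below stand. SAM combined with rank products, the pair of tests that the study names, called 676 probes, 231 higher (0.79%) and 445 lower (1.52%). Differences were small throughout: the median size was 0.05, the median standard error (SE) was 0.06, and no probe reached 2-fold. The 95% interval of a probe reached 0.14 to each side in the median. Single genes below are therefore described by their values on the 4 arrays, their mean difference with its SE and their unadjusted limma p, and none of them is called changed.

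**Figure D1:**
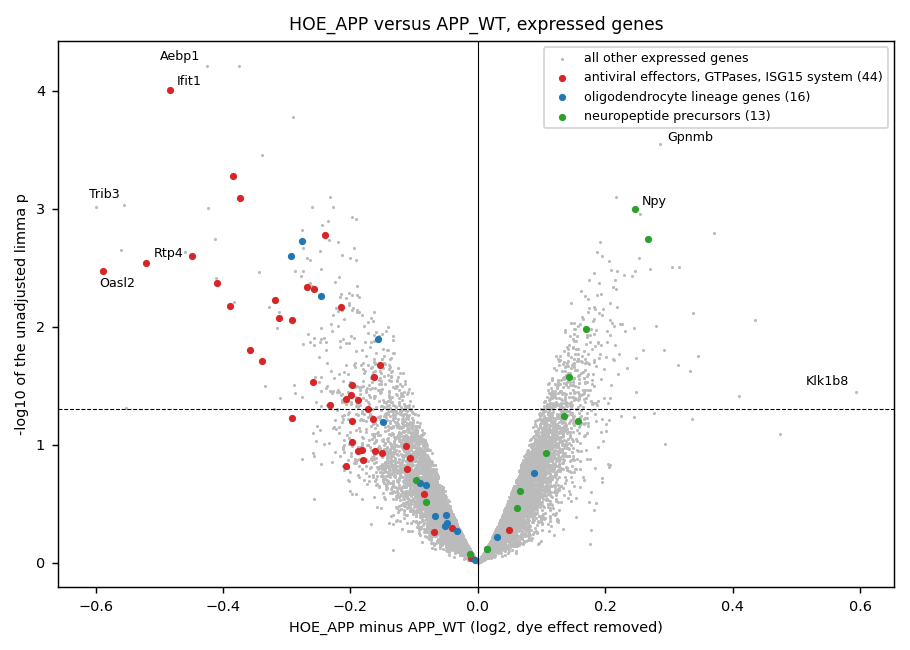
Mean difference between HOE_APP and APP_WT of each expressed gene (x axis, log2) against the −log10 of its unadjusted p-value from limma (y axis); the dashed line marks the 0.05 level and colors mark gene lists. Most of the 44 interferon-induced genes lie left of 0, from −0.59 to 0.05, and no gene of any list passes the test after adjustment.

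The dyes left a larger mark on these arrays than the treatment did. The difference between Cy5 and Cy3 was larger in size than the difference between HOE_APP and APP_WT in 62.4% of probes, its median size was 0.07, and 752 probes (2.56%) had a dye effect at an adjusted limma p below 0.05. Turned ratios of R1 and R2, which share their dyes, correlated with r = 0.34 over probes, and those of R3 and R4 with r = 0.43, whereas ratios of arrays with opposite dyes correlated with r between −0.32 and −0.19. These correlations are over probes of single array pairs and serve as a description. The dye effects of the HOE_APP arrays correlated with those of the arrays of APP_WT against WT, which lay on another slide and share the APP_WT condition, with r = 0.59 over 29361 probes. The dye effect was estimated and removed in every mean difference given here.

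**Figure D2:**
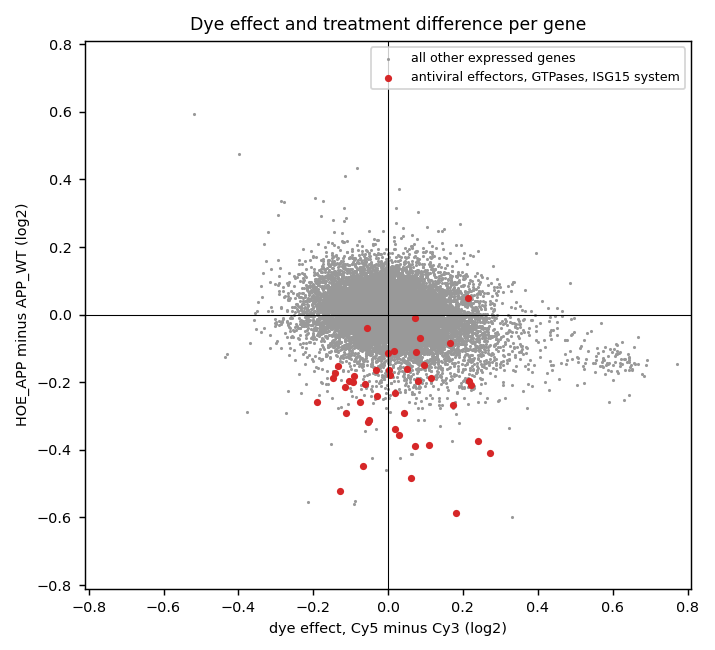
Dye effect (x axis, Cy5 minus Cy3, log2) and difference between HOE_APP and APP_WT (y axis, log2) of each expressed gene on the same scale, with the interferon-induced genes in red. The grey cloud is wider along the dye axis, and 89 genes have a dye effect above 0.5, and the red points lie mostly below 0 on the y axis.

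Interferon-induced genes lay almost entirely on one side of 0. Type I interferons act through the IFNAR receptor and a transcription factor complex that holds IRF9, which binds an element in the promoters of antiviral genes. Of 44 expressed genes in the lists of antiviral effectors, interferon-induced GTPases and the ISG15 system, 43 had a mean below 0, where 47.3% of all expressed genes did. Of these, 24 were below 0 on all 4 arrays (4.22% of all genes) and 25 were lower at an unadjusted p below 0.05 (2.42% of all genes). The lists were chosen with earlier results of these data known. They also hold genes, such as Ifit1, Isg15 and Gbp5, that the study lists as lower on these arrays. These counts are therefore a description and no independent evidence of the direction. The median of the 44 genes was −0.20, against 0.00 for all genes. It was −0.31, −0.16, −0.05 and −0.37 on R1 to R4, so that R3 stood closest to 0. This median stayed between −0.29 and −0.16 under the 15 settings tried, and without R1, R2, R3 or R4 the number of lower genes at an unadjusted p below 0.05 was 14, 22, 32 or 11.

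**Figure D3:**
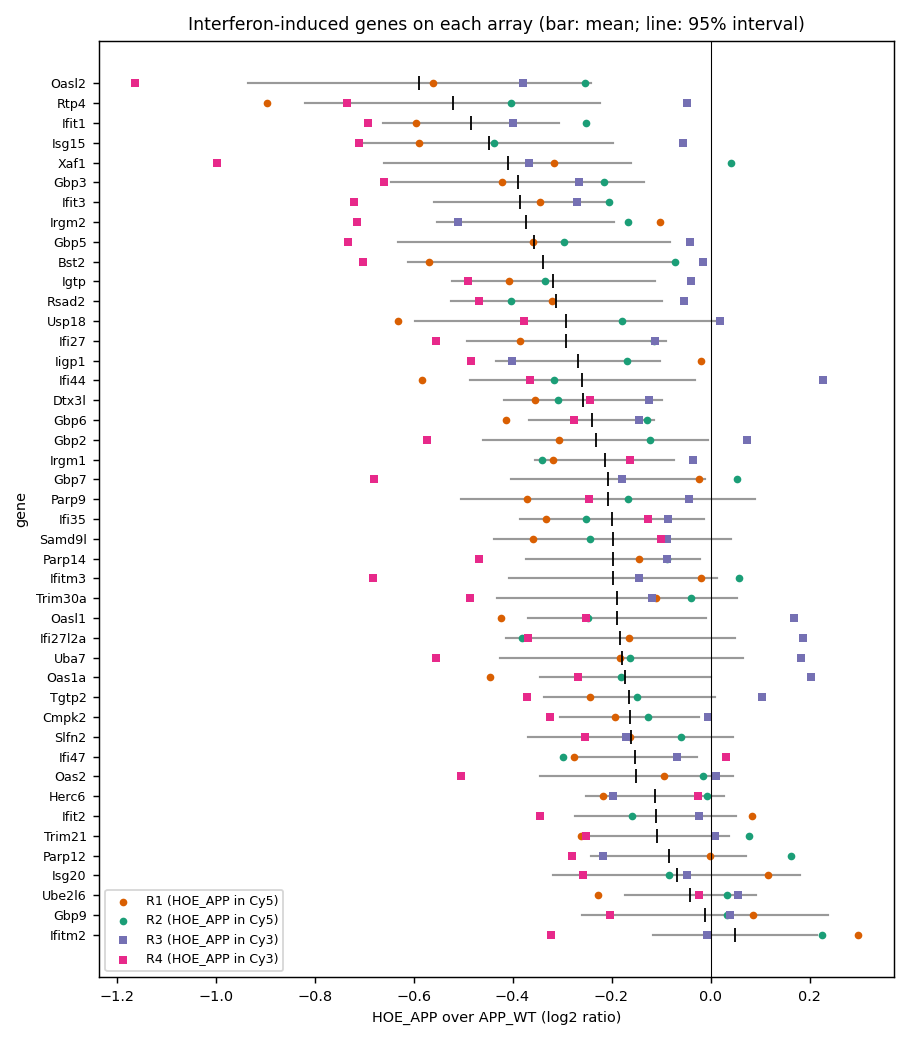
Log2 ratio of HOE_APP over APP_WT on each array (circles R1 and R2, with HOE_APP in Cy5; squares R3 and R4, with HOE_APP in Cy3) for the 44 expressed interferon-induced genes, with the mean (bar) and its 95% interval (line). For 24 genes all 4 points are left of 0; R4 often has the lowest value and R3 the highest.

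Among antiviral effectors, 26 of 27 had a mean below 0 and 14 were lower at an unadjusted p below 0.05. Ifit1, which binds viral RNA that lacks a methylated cap, had ratios of −0.59, −0.25, −0.40 and −0.69 on R1 to R4. All 4 arrays were well below 0, with a mean of −0.48 ± 0.08 (SE) and an unadjusted p of 9.88e-05. Its neighbor Ifit3 gave −0.34, −0.21, −0.27 and −0.72, with a mean of −0.38 ± 0.08. Oasl2, of the oligoadenylate synthetase-like proteins, gave −0.56, −0.25, −0.38 and −1.16, with R4 far below the others, a mean of −0.59 ± 0.16 and an unadjusted p of 0.00338. Rtp4, an interferon-induced protein that was named as a receptor transporter, gave −0.90, −0.40, −0.05 and −0.73 and a mean of −0.52 ± 0.13. Here R3 was close to 0 and the other arrays were not. Rsad2, or viperin, which makes a chain-terminating nucleotide, had a mean of −0.31 ± 0.10, and Bst2, or tetherin, which holds budding viruses at the cell surface, had a mean of −0.34 ± 0.12, with R2 and R3 at −0.07 and −0.01.

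All 12 expressed interferon-induced GTPases had a mean below 0, and 10 of them were lower at an unadjusted p below 0.05. The median was −0.24. These proteins, the guanylate-binding proteins and the immunity-related GTPases, attack the membranes around intracellular pathogens. Irgm2 gave −0.10, −0.17, −0.51 and −0.71, with a mean of −0.37 ± 0.08 and an unadjusted p of 0.000816, and R3 and R4 were lower than R1 and R2. Gbp6 gave −0.41, −0.13, −0.14 and −0.28, with a mean of −0.24 ± 0.06. Gbp5, which also promotes inflammasome assembly, had −0.36, −0.30, −0.04 and −0.73 and a mean of −0.36 ± 0.12. Igtp had a mean of −0.32 ± 0.09 and Iigp1 a mean of −0.27 ± 0.07, and another expressed probe of Iigp1 had the opposite sign. R4 was the lowest array of Irgm2, Gbp5, Igtp and Iigp1.

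ISG15 is a ubiquitin-like protein that is joined to other proteins in infected or interferon-treated cells. Isg15 itself gave −0.59, −0.44, −0.06 and −0.71, with a mean of −0.45 ± 0.11 and an unadjusted p of 0.00251. Usp18, which removes ISG15 and damps the interferon receptor, had −0.63, −0.18, 0.02 and −0.38 and a mean of −0.29 ± 0.14. The activating enzyme Uba7 had a mean of −0.18 ± 0.11 and the ligase Herc6 one of −0.11 ± 0.06. All 5 expressed members of the system had a mean below 0, but only Isg15 had an unadjusted p below 0.05.

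The promoters of these genes are shown because interferon-induced genes are known to share a response element, and their values lay together here. RefSeq promoters (GRCm38.p6, 250 bases before to 50 after the start site) were searched on both strands for the core GAAANNGAAA, whose reverse complement is TTTCNNTTTC, and matches were allowed to overlap. Of all 32851 promoters 3.44% held the core, and 3.70% of 11420 expressed genes with a promoter in the table held it. It was present in 8 of 9 GTPase genes (88.9%), 9 of 21 antiviral effectors (42.9%) and 1 of 4 genes of the ISG15 system (25%). The stretches below run 5′ to 3′ along the gene, and capitals mark the core on either strand.

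Ifit1, chr19:34640760-34640819, + strand: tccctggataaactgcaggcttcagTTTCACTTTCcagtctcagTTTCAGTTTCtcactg
Ifit3, chr19:34583348-34583407, + strand: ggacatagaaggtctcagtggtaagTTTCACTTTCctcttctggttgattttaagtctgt
Isg15, chr4:156200862-156200921, - strand: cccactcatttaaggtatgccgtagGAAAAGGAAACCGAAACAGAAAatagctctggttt
Rsad2, chr12:26456538-26456597, - strand: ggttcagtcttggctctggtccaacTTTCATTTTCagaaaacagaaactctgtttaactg
Bst2, chr8:71537568-71537627, - strand: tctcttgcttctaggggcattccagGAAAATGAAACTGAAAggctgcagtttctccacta
Gbp5, chr3:142496744-142496803, + strand: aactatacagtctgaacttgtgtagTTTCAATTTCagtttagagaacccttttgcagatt
Irgm2, chr11:58214888-58214947, + strand: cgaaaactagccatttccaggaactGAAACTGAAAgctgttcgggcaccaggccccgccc
Cxcl10, chr5:92349068-92349127, - strand: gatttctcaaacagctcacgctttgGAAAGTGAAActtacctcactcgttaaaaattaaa

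The core lay between positions −213 and −64 from the start site in these 8 genes. In the Isg15 stretch 3 cores overlap, and in that of Bst2 2 do. Genes with and without the core overlapped: among genes of the effector, GTPase, ISG15 and sensor lists, the 21 with the core had a median of −0.21 and a range from −0.48 to 0.05, the 23 without it had a median of −0.15 and a range from −0.59 to 0.07, and Oasl2, with the lowest mean but that of Trib3, had no core in this window. Over all 422 expressed genes with the core the median was −0.01. These are matches of letters and were not measured as binding sites.

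Upstream of these effectors the values were smaller. Of 15 cytosolic and endosomal nucleic acid sensors and their adaptors, 12 had a mean below 0 and 3 were lower at an unadjusted p below 0.05, with a median of −0.10. Ddx58, the RNA sensor RIG-I, gave −0.44, −0.32, 0.03 and −0.07, with a mean of −0.20 ± 0.05. Ifih1, the RNA sensor MDA5, gave −0.10, −0.20, −0.03 and −0.44 and a mean of −0.19 ± 0.12. Trim25, the ligase that activates RIG-I, had a mean of −0.21 ± 0.08, and Eif2ak2, the kinase PKR, one of −0.18 ± 0.08 with R1 above 0. Interferon receptors, STAT and IRF factors had a median of −0.04, which was 0.04 under centering on the median in place of loess. Of these 18 genes 14 were below 0, and 1, Irf2, was lower at an unadjusted p below 0.05. Irf9, the DNA-binding part of the interferon complex, had a mean of −0.09 ± 0.05, on the other side of 0 at 0.02 under that centering. The same centering moved the median of all expressed probes to 0.08, beside which the values given below for it stand.

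Genes of antigen presentation on MHC class I had a median of −0.13, with 13 of 15 below 0. Of the list 1 was lower at an unadjusted p below 0.05, where 2.42% of all genes were. Without R4 the median was −0.04, and under centering on the median it was −0.02 with 9 of 15 below 0. H2-K1, a class I heavy chain, gave −0.46, −0.15, −0.00 and −0.35 and a mean of −0.24 ± 0.10. B2m, the light chain, had a mean of −0.21 ± 0.11, the peptide transporter subunit Tap2 one of −0.19 ± 0.09 and the immunoproteasome subunit Psmb9 one of −0.18 ± 0.10. R4 was the lowest array for B2m, Tap2 and Psmb9.

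Chemokines and complement included some of the lowest values of the whole comparison beside members near 0. Of 13 expressed chemokines and receptors 10 were below 0 and 3 were lower at an unadjusted p below 0.05, with a median of −0.09, but without R4 6 of 13 were below 0 and the median was 0.00. Ccl5, which attracts T cells and monocytes, gave −0.89, −0.65, −0.03 and −0.65, with a mean of −0.55 ± 0.12 and an unadjusted p of 0.000919. R3 again stood near 0. Cxcl10, an interferon-induced chemokine, gave −0.41, −0.16, −0.22 and −0.37 and a mean of −0.29 ± 0.12, and Ccl3 had a mean of −0.21 ± 0.09. Cxcl12, a chemokine that guides migrating neurons and progenitors, was on the other side with a mean of 0.14 ± 0.06. Of 13 complement genes 11 were below 0 and 2 were lower at an unadjusted p below 0.05, where 2.42% of all genes were. Without R4, however, 5 of 13 were below 0, and the median went from −0.07 to 0.01. C3, the central component of the cascade, gave −0.75, −0.55, −0.14 and −0.80, with a mean of −0.56 ± 0.14 and an unadjusted p of 0.00223. C4b had a mean of −0.25 ± 0.06. C1qa, made by microglia, differed between arrays, with −0.32, −0.40, 0.38 and −0.06 and a mean of −0.10 ± 0.08, and C1ra reached −0.76 on R4 only.

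Toll-like receptors and their adaptors had a median of −0.03, which was 0.05 under centering on the median, with 9 of 11 genes below 0 and 3 lower at an unadjusted p below 0.05, or 0 of 11 without R4. Tlr2, a receptor for bacterial lipoproteins, gave −0.42, −0.25, 0.05 and −0.34 and a mean of −0.24 ± 0.08. The co-receptor Cd14 had a mean of −0.15 ± 0.07 and Ly86, a partner of a Toll-like protein, one of −0.14 ± 0.06, with all 4 arrays of both below 0. In the NF-kB and inflammatory list 16 of 17 were below 0 and 5 lower at an unadjusted p below 0.05, with a median of −0.09. Without R4 10 of 17 were below 0, none at an unadjusted p below 0.05, with a median of −0.01, and under centering on the median 10 of 17 were, with a median of −0.02. Casp4, an inflammatory caspase, gave −0.64, −0.35, 0.15 and −0.07, so that the mean of −0.23 ± 0.09 came from R1 and R2. Acod1, which makes itaconate in activated macrophages, gave −0.22, −0.08, −0.19 and −0.43 and a mean of −0.23 ± 0.10. Nfkbiz had a mean of −0.16 ± 0.06 and the adhesion molecule Vcam1 one of −0.21 ± 0.09.

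The study lists 18 immune genes for HOE_APP, a list that was chosen on these arrays and is therefore no independent evidence of its direction. Of 17 expressed members all had a mean below 0, 14 were lower at an unadjusted p below 0.05, 12 were called lower by SAM and rank products, and their median was −0.25. The remaining member, Zc3hav1, did not pass the filter on dim probes and was well above background in 1 channel of each kind. Without R4, and also under centering on the median, 7 of them were lower at an unadjusted p below 0.05. The member nearest to 0 was Gpr65, a proton-sensing receptor, with −0.23, −0.19, 0.10 and 0.01, and Ptpn6, the phosphatase SHP-1 of blood cells, gave −0.39, −0.06, 0.00 and −0.26. All 8 genes of the RT-PCR list had an array mean below 0. Of them 5 had an unadjusted p below 0.05, 2 without R1, 3 without R2, 5 without R3 and 2 without R4. Beside C3, Ccl5, Tlr2, Ccl3 and Cx3cr1, the list held Ccl12 with −0.11 ± 0.10, Aif1 (Iba-1) with −0.08 ± 0.08, which was 0.01 under centering on the median, and Tnf with −0.06 ± 0.07. For these last 3 genes R3 was above 0. By RT-PCR on the same RNA samples, the study reports a significant decrease of C3, Ccl12 and Ccl5 in HOE_APP. It reports no significant difference for Ccl3, Cx3cr1, Tnf and Iba-1.

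Microglial genes were measured at low to moderate differences. All 16 expressed homeostatic microglial markers had a mean below 0, with a median of −0.09. Of these 2 were lower at an unadjusted p below 0.05, where 2.42% of all genes were. Under centering on the median 9 of the 16 were below 0. Cx3cr1, the fractalkine receptor, gave −0.18, −0.21, −0.02 and −0.30 and a mean of −0.18 ± 0.07. Laptm5, a lysosomal protein of blood cells and microglia, gave 0.05, −0.29, −0.43 and −0.39 and a mean of −0.27 ± 0.09. Adgre1, an adhesion receptor of macrophages, had a mean of −0.21 ± 0.10 and Siglech one of −0.19 ± 0.10. All 11 expressed genes of Fc receptor and ITAM signalling were below 0, with a median of −0.13, and Vav1 and Blnk were lower at an unadjusted p below 0.05, both with R1 and R2 between −0.46 and −0.28 and R3 and R4 within 0.08 of 0. Without R4 the median was −0.04 and 9 of 11 were below 0, and under centering on the median it was −0.06, with none at an unadjusted p below 0.05 in either. The homeostatic markers lay on the same side of 0 as the interferon-induced genes, and their part in the values of those genes was not tested. Under centering on the median, where all probes had a median of 0.08, the markers had one of −0.01. The 44 interferon-induced genes then had a median of −0.17, with 41 of 44 below 0.

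Genes of disease-associated microglia did not lie on one side. Of 14 expressed members 9 had a mean below 0 and 5 above it, with a median of −0.05, which was 0.08 under centering on the median. Gpnmb, a glycoprotein of lipid-laden phagocytes, gave 0.27, 0.08, 0.41 and 0.39, with a mean of 0.29 ± 0.05 and an unadjusted p of 0.000283. It was among the 10 highest of the genes above 0 on all 4 arrays. Spp1, or osteopontin, was also higher with a mean of 0.15 ± 0.06, although R4 was at −0.09. On the other side stood Lgals3, or galectin-3, with −0.34, −0.05, −0.26 and −0.45 and a mean of −0.28 ± 0.07, and the protease Ctsb with a mean of −0.20 ± 0.06.

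Reactive astrocyte genes had a median of −0.19, with 13 of 14 below 0 and 5 lower at an unadjusted p below 0.05, and without R4 the median was −0.05 and 8 of the 14 were below 0. Cd44, a hyaluronan receptor, gave −0.11, −0.27, −0.35 and −0.32, with a mean of −0.26 ± 0.06 and an unadjusted p of 0.000974. Hspb1, a small heat shock protein, had −0.02, −0.08, −0.40 and −0.55 and a mean of −0.26 ± 0.07, and Osmr, the oncostatin M receptor, a mean of −0.19 ± 0.06. Gbp2, which belongs to the GTPases as well, had a mean of −0.23 ± 0.10. General astrocyte markers had a median of −0.08, which was 0.05 under centering on the median. In the main fit 3 of 14 were lower at an unadjusted p below 0.05, where 2.42% of all genes were. Sox9, a glial transcription factor, had the narrowest spread, from −0.14 to −0.09 on the 4 arrays, with a mean of −0.12 ± 0.05 that became 0.01 under that centering. Aldh1l1 had a mean of −0.18 ± 0.06, the water channel Aqp4 one of −0.19 ± 0.08 and Gfap one of −0.13 ± 0.07, with R4 of Gfap above 0.

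Of 16 expressed oligodendrocyte lineage genes 13 were below 0 and 4 were lower at an unadjusted p below 0.05, where 2.42% of all genes were. The median of the list was −0.06, which was 0.06 under centering on the median and −0.02 without R4. Mag, a myelin adhesion protein, gave −0.30, −0.52, −0.09 and −0.19 and a mean of −0.28 ± 0.07. Mog, at the outer face of myelin, was alike on all arrays, between −0.19 and −0.13, with a mean of −0.16 ± 0.05. Mobp had a mean of −0.25 ± 0.07 with R1 above 0. Mal, a proteolipid of myelin and epithelial membranes that was in no list, was among the 10 lowest of the genes below 0 on all 4 arrays with −0.64, −0.29, −0.40 and −0.51, a mean of −0.46 ± 0.12 and an unadjusted p of 0.00234. Myelin basic protein (Mbp) had a mean of −0.09, the lineage factor Olig2 one of 0.09, Sox10 one of 0.01 and Pdgfra, of the precursors, one of −0.03.

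The lowest mean of all genes was that of Trib3, a pseudokinase induced by the integrated stress response. It gave −0.33, −0.20, −0.61 and −1.25, with R4 farthest from 0, a mean of −0.60 ± 0.13 and an unadjusted p of 0.000959. Chac1 and Atf5, which the same response induces, had means of −0.22 ± 0.06 and −0.26 ± 0.09. Xbp1, the factor of another branch of the unfolded protein response, had 0.00, 0.01, 0.36 and 0.32 and a mean of 0.17 ± 0.05. The list as a whole was split, with 7 of 16 below 0 and a median of 0.01, but under centering on the median 13 of 16 were above 0, with a median of 0.13. Trib3 and the related Chac1 and Atf5 were below 0 on all 4 arrays, and Xbp1 was well above 0 on R3 and R4 and near 0 on R1 and R2.

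Glycolysis and hypoxia genes had a median of −0.13, with 17 of 18 below 0, 5 of them on all 4 arrays (4.22% of all genes). Of the list 4 were lower at an unadjusted p below 0.05, where 2.42% of all genes were. Under centering on the median the median was −0.00 and 9 of the 18 were below 0. Slc16a3, a lactate exporter that was in no list, was among the 10 lowest of the genes below 0 on all 4 arrays with −0.56, −0.22, −0.34 and −0.57, a mean of −0.42 ± 0.09 and an unadjusted p of 0.000991. Hexokinase 2 (Hk2) gave −0.10, −0.20, −0.34 and −0.35 and a mean of −0.25 ± 0.08. Aldoa had a mean of −0.17 ± 0.07, P4ha1 one of −0.19 ± 0.08 and Ldha one of −0.14 ± 0.06, and the latter was 0.01 under that centering. Aebp1, a secreted protein that binds collagen, had the smallest unadjusted p of all probes, 6.09e-05, with −0.40, −0.53, −0.21 and −0.56 and a mean of −0.43 ± 0.07. Extracellular matrix genes had a median of −0.05, 0.04 under centering on the median, and among them Fn1 (fibronectin) gave 0.15, −0.17, −0.67 and −0.65 and Col6a1 had a mean of −0.18 ± 0.07. Lysosomal genes had a median of −0.06, 0.07 under that centering.

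Neuropeptide precursors stood on the other side, with 10 of 13 above 0, 6 of them on all 4 arrays where 6.24% of all genes were, and a median of 0.11. Of the list 4 were higher at an unadjusted p below 0.05, where 2.48% of all genes were. Npy, neuropeptide Y, gave 0.29, 0.18, 0.29 and 0.23, with a mean of 0.25 ± 0.05 and an unadjusted p of 0.001, and the 4 arrays differed little. Tac1, which encodes substance P, gave 0.43, 0.49, 0.16 and −0.01 and a mean of 0.27 ± 0.06. Sst, somatostatin of interneurons, had a mean of 0.17 ± 0.05, and Scg2, secretogranin II of dense-core vesicles, one of 0.14 ± 0.06, both above 0 on all 4 arrays. The median of the list stayed between 0.06 and 0.16 under the 15 settings tried.

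Of general neuronal markers 7 were above and 7 below 0, with a median of 0.01 and none at an unadjusted p below 0.05. Under centering on the median 14 of 14 were above 0, with a median of 0.14 and 5 at an unadjusted p below 0.05. The median of all probes was then 0.08, and 2806 of 29360 probes were higher and 296 lower at that level. Glutamatergic lineage genes had a median of 0.09 with 11 of 13 above 0, and without R4 a median of 0.03 with 7 of 13 above 0. Among them was Neurod6, a transcription factor of cortical excitatory neurons, with 0.31, 0.27, 0.14 and 0.04 and a mean of 0.19 ± 0.06. GABAergic interneuron genes had a median of −0.02, 0.11 under centering on the median, and their lowest member was Prokr2, a prokineticin receptor of olfactory neuroblasts, with a mean of −0.28 ± 0.09. Of 16 synaptic genes 8 were above and 8 below 0, while under centering on the median 15 were above 0, 8 of them at an unadjusted p below 0.05, with a median of 0.14. Stx1a, a protein of vesicle fusion, had −0.01, 0.23, 0.30 and 0.36 and a mean of 0.22 ± 0.06.

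Genes of the cell cycle and of cholesterol synthesis had small values above 0. Of S phase genes 21 of 23 and of G2/M genes 22 of 24 had a mean above 0, with medians of 0.06 and 0.07, and 1 gene of each list was higher at an unadjusted p below 0.05, where 2.48% of all genes were. Under centering on the median the medians were 0.17 and 0.16, against 0.08 for all probes. At an unadjusted p below 0.05, 10 and 5 genes were then higher, where 2806 of all 29360 probes were. In the main fit the G2/M gene at that level was Ndc80, of the kinetochore, with 0.24, 0.06, 0.17 and 0.25. Of 26 genes of cholesterol synthesis and its SREBP regulators 23 were above 0 and 5 were higher at an unadjusted p below 0.05, with a median of 0.08. The arrays disagreed here: the median of the list was −0.03 and −0.05 on R1 and R2 and 0.08 and 0.32 on R3 and R4. Idi1 gave −0.17, −0.10, 0.39 and 0.52 and Mvd −0.03, −0.15, 0.31 and 0.47. R3 and R4 are the arrays with HOE_APP in Cy3, and both genes had dye effects, −0.29 and −0.24, larger in size than their mean differences of 0.16 ± 0.05 and 0.15 ± 0.05. Without R4 the list's median was 0.03, with 16 of 26 above 0.

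The 10 highest genes above 0 on all 4 arrays held no member of the immune lists other than Gpnmb. The highest mean was that of Klk1b8, a kallikrein of the mouse glandular family, but it came from a single array: the ratios were 0.06, 0.09, 2.21 and 0.02, with a mean of 0.59 ± 0.25. The probe was well above background in 3 HOE_APP and 2 APP_WT channels. Likewise 1700102H20Rik had 0.95 on R3 and 0.13 to 0.15 on the others. Fmnl3, a formin that builds actin filaments, was spread more evenly with 0.44, 0.36, 0.58 and 0.11, a mean of 0.37 ± 0.09 and an unadjusted p of 0.00161. Polr1b, a subunit of RNA polymerase I, gave 0.51, 0.17, 0.42 and 0.17 and a mean of 0.32 ± 0.08. Cmtm4 had a mean of 0.41 ± 0.17, and its other expressed probe had the opposite sign. BC051226, 9130024F11Rik, Prr7 and Tatdn2 had means between 0.26 and 0.31.

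The target of HOE-140 was not detected. Bdkrb2 and Bdkrb1 were each measured by 1 probe, and neither was well above background in any of the 8 channels of the 4 arrays, so that no direction can be read from them. The same held for Kng1, Kng2, Klk1, F12 and Klk6. Klkb1, plasma prekallikrein, was well above background in 2 HOE_APP channels and 1 APP_WT channel and did not pass the filter. Klk8, neuropsin, was the only expressed member of the list of kininogens and kallikreins, which does not hold Klk1b8, with 0.28, −0.01, −0.03 and 0.09 and a mean of 0.08 ± 0.17. Kinin-degrading peptidases had a median of −0.03, 0.07 under centering on the median, and 1 of 13, Prcp, was lower at an unadjusted p below 0.05 with a mean of −0.13 ± 0.05, but another expressed probe of it had the opposite sign. Under centering on the median 19 of 22 genes of B2 receptor signalling were above 0, with a median of 0.09 against 0.08 for all probes. In the main fit 12 were below and 10 above 0. A gene in each direction had an unadjusted p below 0.05, where 2.48% of all genes were higher and 2.42% lower: Arrb2, β-arrestin 2, with a mean of 0.14 ± 0.06, and Pla2g4a, cytosolic phospholipase A2, with −0.37, 0.01, −0.08 and −0.25 and a mean of −0.17 ± 0.08.

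The amyloid genes lay near 0. App gave −0.08, −0.14, 0.04 and −0.04, with a mean of −0.05 ± 0.04 and a 95% interval from −0.15 to 0.04. Prnp, whose promoter drives the transgenes, gave −0.17, −0.19, −0.09 and 0.13 and a mean of −0.08 ± 0.15. Under centering on the median both were above 0, at 0.09 and 0.06, where the median of all probes was 0.08. Which App transcripts the App probe detects was not tested. Of the 13 expressed genes of this group 1, Psen2, was lower at an unadjusted p below 0.05, where 2.42% of all genes were.

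**Figure D4:**
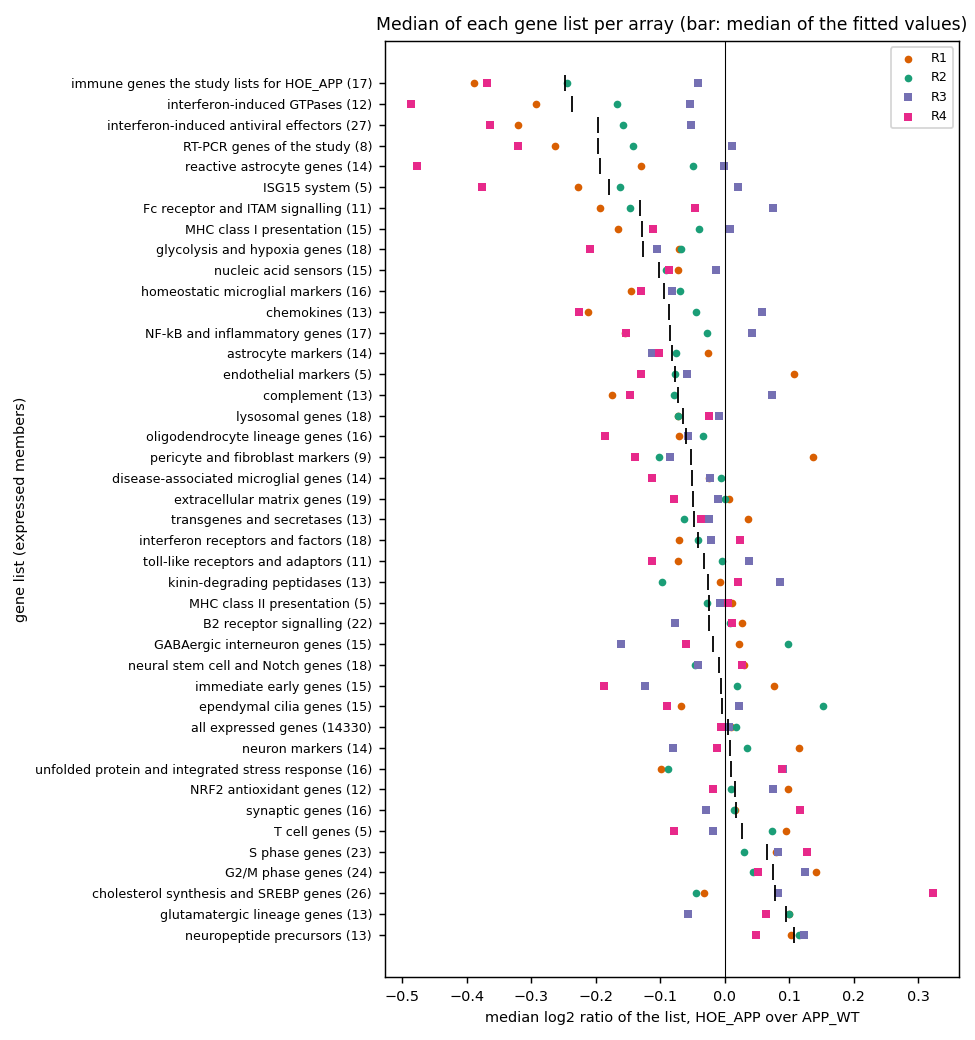
Median log2 ratio of HOE_APP over APP_WT of each gene list with at least 5 expressed members (number in parentheses) on each array, with the median of the fitted means (bar). For the antiviral effectors and the GTPases all 4 arrays lie left of 0, with R3 nearest to it. All 4 also lie left of 0 for several other lists, such as homeostatic microglial markers, astrocyte markers and glycolysis genes. For neuropeptide precursors, S phase and G2/M genes all 4 lie right of 0.

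The contrast of both drugs was tested in the same model, since HOE-140 blocks the receptor that BK activates. The difference HOE_APP minus BK_APP was at an adjusted limma p below 0.05 for 0 of 29358 probes (smallest adjusted p 1.00), and 733 (2.50%) had an unadjusted p below 0.05. With the replicate number as a block, which pairs the arrays, 2517 probes did, again with 0 below an adjusted p of 0.05. The smallest adjusted limma p of that fit was 0.08. Both comparisons share the APP_WT control, so that their values are given side by side. The p-values and counts of genes below are from the model without the replicate block, which ignores the pairing. Ifit1 was −0.48 under HOE-140 and 0.25 under BK, a difference of −0.74 with an unadjusted p of 5.25e-05. C3 was −0.56 and 0.24, a difference of −0.80 with an unadjusted p of 0.00201, and Tlr2 was −0.24 and 0.23, a difference of −0.48 with an unadjusted p of 0.00162. These contrasts rest on the likely direction: if the HOE_APP ratios are turned, both drugs lie above APP_WT for these genes, and the differences are 0.23 for Ifit1, 0.32 for C3 and 0.01 for Tlr2, with unadjusted p of 0.0675, 0.14 and 0.956. Of the 44 interferon-induced genes 27 had an unadjusted p below 0.05 for the difference, where 2.50% of all probes did. With the sign turned 4 of the 44 did, and the count over all probes was then 2327 in place of 733. In the direction used the medians of the 44 genes were −0.20 under HOE-140 and 0.12 under BK. Of these the GTPases had a BK_APP median of 0.07 and the antiviral effectors one of 0.13, and that of the reactive astrocyte genes was 0.14. In the direction used, Gpnmb was above 0 under both drugs, at 0.29 and 0.35, and Trib3 and Atf5 were below 0 under both, Trib3 at −0.60 and −0.33 and Atf5 at −0.26 and −0.31. For scale, the difference between APP_WT and WT in the same model was 1.91 for Ifit1, 4.17 for C3 and 2.15 for Ccl5, each at an adjusted limma p below 0.05, and 18.5% of all probes were called in that comparison.

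**Figure D5:**
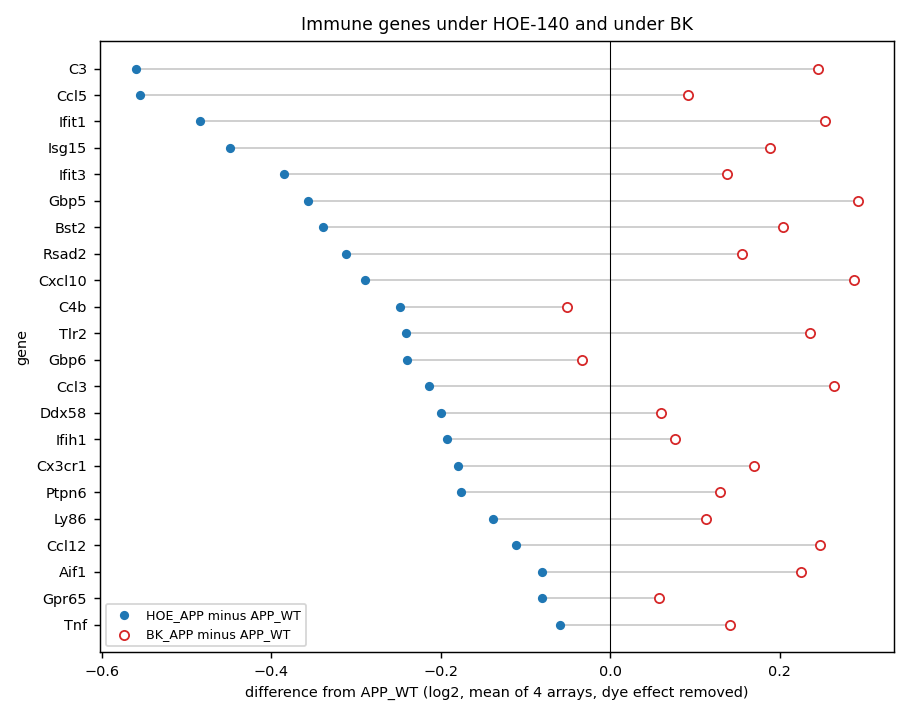
Mean log2 difference from APP_WT of the expressed immune and RT-PCR genes of the study under HOE-140 (filled) and under BK (open), 4 arrays each. All HOE_APP points lie left of 0, and the BK_APP points lie right of 0 except those of C4b and Gbp6. Both comparisons use APP_WT as control, and the side of the HOE_APP points rests on the likely direction. The listed immune genes were chosen by the study on these arrays, and the RT-PCR genes were raised in APP/PS1 neurospheres in its earlier work.

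Shares of small p-values were alike for probes outside protein-coding genes. Of 5222 expressed probes for intergenic intervals 5.44% had an unadjusted p below 0.05, 85 higher and 199 lower, with a median of −0.02. For 767 probes of RefSeq non-coding RNAs the share was 6.13%, 20 higher and 27 lower, and for 18732 probes of RefSeq mRNAs it was 4.86%, 485 higher and 425 lower.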

How the data were processed

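Each 2-color Agilent SurePrint G3 8x60K array has scanner output, which the authors deposited with median intensity and local background per spot and channel and a log10 ratio of processed red over green. A deposited table of log2 ratios follows the scanner log ratios in size (r of 0.999 to 1.00 in size). Its sign is turned against red over green on R3 and R4 of HOE_APP and BK_APP and on R1 and R2 of APP_WT against WT, as here. The normalization behind that table is not given in the sources used here. File headers name Feature Extraction 11.0.1.1. Intensities were corrected by normexp (offset 50) and normalized by loess (span 0.3) in limma 3.58.1 (R 4.3.3), where the fixed design had assumed mean signals. After removal of 3671 control spots from 62976, the mean over replicate spots gave 55681 probes. All ratios run as HOE_APP over APP_WT; the direction is likely only, as the labels of both channels conflict with the swap. A probe was kept if 1 condition of any comparison had it well above background on 3 or 4 arrays (29361; 102 lacked a value on a HOE_APP array, which was not imputed, and 1 had no estimate). Of 29150 probes with a RefSeq accession 27509 were named through a GRCm38.p6 table, and a gene took its brightest expressed probe.

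A limma model over the 12 arrays had a mean and a dye coefficient per comparison (6 residual and 4.56 prior degrees of freedom), with two-sided p-values adjusted over all expressed probes. SAM and rank products were rebuilt with 16 sign flips and 100 permutations. The 4 arrays of HOE_APP and those of BK_APP lay on the same slide, each in a row of its own, so that position and treatment cannot be told apart. Arrays of HOE_APP and BK_APP with the same replicate number deviated together. With dye effects left in, r was 0.52 to 0.68 and every array correlated best with its own number. With dye effects removed, r was 0.42 to 0.43. The main model holds no term for this pairing, and a fit with the replicate number as a block was run as an alternative. Named genes were the 10 highest and 10 lowest with the same sign on all 4 arrays, all kinin, RT-PCR and listed immune genes, and up to 4 genes of smallest p of each other list; Psen2, Mbp, Olig2, Sox10 and Pdgfra and the genes of marker checks were added afterwards. Members and the 44 lists (668 genes, 571 expressed) were chosen with earlier results of these data known. The number of arrays limits the precision, and the fit was tested on simulated data. Some genes of the lists count in their totals but are not reported here by name.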

Additional observations from a re-analysis of the deposited data

Results flagged for a closer look

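Of 107 named genes, 5 had 1 array apart from the other 3 by most of the range of the 4. Chance gives this in about 1 in 20 sets of 4, and the count is near that share. Klk1b8 was at 2.21 on R3 and between 0.02 and 0.09 on the others, and 1700102H20Rik at 0.95 on R3 and between 0.13 and 0.15. Ctsb was at −0.43 on R4 and between −0.15 and −0.10 on the others, Atf5 at −0.59 on R2 and between −0.16 and −0.14, and Scg2 at 0.23 on R2 and between 0.10 and 0.12.

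In the direction used, which is likely only, for 8 named genes every HOE_APP array lay below 0 and every BK_APP array above it. Of these, Rtp4, Ifit1 and Isg15 were named partly because every HOE_APP array lay below 0. The others came from the study's immune list or had the smallest p of their gene list. Part of the pattern was thus met by selection. Its share among all expressed genes was not counted, so that these 8 genes are a description only. The differences HOE_APP minus BK_APP were −0.73 for Rtp4, −0.74 for Ifit1, −0.64 for Isg15, −0.65 for Gbp5, −0.25 for Ly86, −0.28 for Herc6, −0.36 for Cd14 and −0.43 for Vcam1. The test of the difference gave none of them an adjusted limma p below 0.05. The largest unadjusted p among them was 0.0122, that of Ly86. If the HOE_APP ratios are turned, every array of both drugs lies above 0 for these genes, and the differences are 0.31, 0.23, 0.26, 0.06, 0.03, −0.05, −0.06 and −0.01 in the same order, none at an unadjusted p below 0.05.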

How the results depend on the processing

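With no adjusted call in the comparison of HOE_APP with APP_WT, precision is limited by 4 arrays. The count of adjusted calls was 0 under every setting but the omission of R4, with a range of 0 to 9 when 1 array was left out; all 9 probes, Klk1b8 among them, had a ratio near 1 or above on R3, which is then the only array with HOE_APP in Cy3. The number at an unadjusted p below 0.05 (1475) was 3102 under centering on the median in place of loess, 2571 with the HOE_APP arrays alone, 2361 with array weights and 676 by SAM and rank products, and 908 to 1485 with 1 array left out. With the replicate block it was 2125, 823 higher and 1302 lower. Centering on the median turned the split from 677 higher and 798 lower to 2806 and 296, and the HOE_APP arrays alone gave 931 and 1640, or 331 and 661 without the dye term. That centering moved the median of all probes to 0.08.

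For HOE_APP minus BK_APP the number at an unadjusted p below 0.05 (733) was 452 under centering on the median, 1125 without a filter, 2517 with the replicate block, 2327 with the sign of HOE_APP turned, and 414 to 735 with 1 replicate number left out, which gave 0 to 2 adjusted calls. The replicate block changed no adjusted call.

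Of 107 named genes 98 kept their sign under all 15 settings. Centering on the median reversed Aif1 (0.00894), Irf9 (0.0227), Sox9 (0.0119), Gfap (0.0278), Ldha (0.0136), App (0.0906) and Prnp (0.0564). With 1 array left out Uba7 ranged from −0.364 to 0.00478 and C1qa from −0.208 to 0.0094, the highest without R4 for both. The cause was not tested.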
